A study of Mus musculus with 2 samples.

Results

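The proteasome genes comprised every gene whose single annotated symbol starts with Psma, Psmb, Psmc, Psmd, Psme, Psmf or Psmg followed by a digit, which was 49 of the 18193 genes measured. They were measured in E14 mouse embryonic stem cells kept with serum and leukemia inhibitory factor on gelatin, after lentiviral delivery of a non-targeting shRNA (shCtrl) or of shSin3a-1, a single shRNA against the corepressor scaffold gene Sin3a, and puromycin selection. Each group was 1 array of total RNA, so no value below has a replicate check and no p-value could be computed. A gene was read by its brightest probe set, and its level is the deposited MAS5 signal, a scaled hybridisation intensity in arbitrary units. Signals of different probe sets are not comparable as abundances, so each gene is compared with itself across the arrays. Pairs of signals are given with the shCtrl array first.

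The proteasome is the main protease for proteins tagged with ubiquitin in the cytosol and nucleus. Its 20S core is a barrel with outer rings of alpha subunits, which form the gate, and inner rings of beta subunits, some of which cut peptide bonds; the 19S cap binds ubiquitin chains, removes them and unfolds the substrate with a ring of ATPases. In immune cells and after interferon, Psmb8, Psmb9 and Psmb10 take the places of the constitutive catalytic subunits Psmb5, Psmb6 and Psmb7, which forms the immunoproteasome and shifts the peptides made for MHC class I molecules.

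Differences are log2 values, shSin3a-1 minus shCtrl, after each array was centred on its median signal. Centring raised every difference, because the array medians differed by -0.11 as deposited. Under the deposited scaling each value below is lower by the same amount, and small values above 0 change sign. Members were therefore read against the median of all 9782 kept genes, which was 0.07 after centring and -0.03 as deposited. Sin3a itself had signals of 3072 and 534, a difference of -2.41, and its 3 kept probe sets ran from -2.41 to -1.63. The stem cell markers (Pou5f1, Nanog, Sox2, Zfp42, Esrrb, Utf1, Dppa5a and Tdgf1) were all within 1.5-fold by their brightest probe sets, 8 of 8. Of all kept genes above the 90th signal percentile, 92.6% were within 1.5-fold too. Summed deposited signals of the 8, weighted to the brightest probe sets, were 84146 and 88319. The 3 kept probe sets of Esrrb ran from -0.61 to 1.18, with -0.15 in the brightest.

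The promoters of the inducible catalytic subunits and of their constitutive counterparts Psmb5 and Psmb6 are shown because the catalytic subunits held the one gene past 2-fold. No promoter sequence was available for Psmb7, the counterpart of Psmb10. Each is the 250 bases before the RefSeq gene start, 5′ to 3′ along the gene (RefSeq, GRCm38.p6), with motif matches in capitals.
Psmb8 (chr17:34197945-34198194, plus strand): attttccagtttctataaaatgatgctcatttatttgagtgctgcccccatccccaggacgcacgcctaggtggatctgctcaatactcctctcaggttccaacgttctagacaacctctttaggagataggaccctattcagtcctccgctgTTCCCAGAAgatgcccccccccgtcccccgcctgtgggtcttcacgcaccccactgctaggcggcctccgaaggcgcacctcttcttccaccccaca
Psmb9 (chr17:34187331-34187580, minus strand): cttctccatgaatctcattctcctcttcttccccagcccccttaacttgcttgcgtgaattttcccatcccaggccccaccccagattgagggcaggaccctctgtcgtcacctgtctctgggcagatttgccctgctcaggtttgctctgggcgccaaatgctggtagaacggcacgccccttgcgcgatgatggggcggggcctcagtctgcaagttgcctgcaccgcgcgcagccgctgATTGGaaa
Psmb10 (chr8:105938393-105938642, minus strand): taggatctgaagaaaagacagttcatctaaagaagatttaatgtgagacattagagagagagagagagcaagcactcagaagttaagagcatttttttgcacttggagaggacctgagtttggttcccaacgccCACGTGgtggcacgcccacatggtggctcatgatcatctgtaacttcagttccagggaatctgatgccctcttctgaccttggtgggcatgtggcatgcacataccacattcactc
Psmb5 (chr14:54617996-54618245, minus strand): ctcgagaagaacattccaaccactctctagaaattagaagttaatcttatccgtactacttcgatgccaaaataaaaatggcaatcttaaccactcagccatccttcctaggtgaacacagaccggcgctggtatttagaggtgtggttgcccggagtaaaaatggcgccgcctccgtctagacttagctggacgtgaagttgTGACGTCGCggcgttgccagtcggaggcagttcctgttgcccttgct
Psmb6 (chr11:70525107-70525356, plus strand): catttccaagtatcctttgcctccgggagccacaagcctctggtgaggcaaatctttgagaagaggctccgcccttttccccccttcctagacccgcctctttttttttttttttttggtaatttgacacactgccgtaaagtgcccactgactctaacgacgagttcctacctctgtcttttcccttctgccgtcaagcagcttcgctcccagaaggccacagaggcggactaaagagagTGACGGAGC

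Letters were searched on both strands for TGACNNNGC (the antioxidant response element, which NRF1 and NRF2 bind), CCAAT (the NF-Y box), GAAANNGAAA (an interferon-stimulated element), TTCNNNGAA (the gamma-activated site of STAT factors) and CACGTG (the E-box of MYC and MXD factors). Matches of different motifs were allowed to overlap. The capitals mark a gamma-activated site in Psmb8 that starts 97 bases before the gene, a CCAAT box in Psmb9 at 8 bases, an E-box in Psmb10 at 116 bases and an antioxidant response element in Psmb5 and in Psmb6 at 47 and 9 bases. Of the 49 genes 41 had a promoter in the table. The antioxidant response element was found in 5 of these 41 (12.2%) and in 11.5% of all 27025 genes with a promoter. The CCAAT box was in 16 members (39.0%) against 37.5% of all genes, the E-box in 5 (12.2%) against 6.86%, the interferon-stimulated element in 3 (7.32%) against 3.46% and the gamma-activated site in 2 (4.88%) against 8.13%. Among the 25 constitutive core and cap subunits with a promoter, the E-box was in 1 (4%), the antioxidant response element in 4 (16%), the CCAAT box in 10 (40%), the interferon-stimulated element in 2 (8%) and the gamma-activated site in 0. These are letter matches in a short window, not binding sites.

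Most proteasome genes gave similar signals on both arrays. The filter asked that the brighter of a gene's 2 values lie at or above the 60th percentile of its array (signals of 131 and 126), and 47 of the 49 members were kept; Psmb8 and Psmb11 were not. No kept member was higher at 2-fold, against 2.43% of all kept genes, and Psmb9 was the 1 member lower at 2-fold, against 2.01% of all kept genes. At 1.5-fold, Psmg2 alone was higher (10.2% of all kept genes were) and Psmb9 alone was lower (6.76% of all kept genes were). The other 45 kept members (95.7%) lay within 1.5-fold, as did 83.1% of all kept genes. The members' median of 0.09 lay beside the median of 0.07 over all kept genes, and 25 members were above it and 22 below.

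Brightness bears on that comparison, because bright probe sets differ less between arrays. Of the kept members 37 had their brighter value above the 90th percentile of its array, and 36 of these were within 1.5-fold. Of all 3006 kept genes that bright, 7.39% were past 1.5-fold in either direction. The interquartile range of the 37 bright members was 0.30 on the log2 scale, against 0.36 for all kept genes of that brightness, and their median distance from the median of all kept genes was 0.14 against 0.18. Of 21 members with several kept probe sets, 11 had all of them on the same side of 0; dimmer probe sets of the others, Psmb1 (-0.29, against 0.09 in its brightest) among them, differed in sign.

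**Figure D1:**
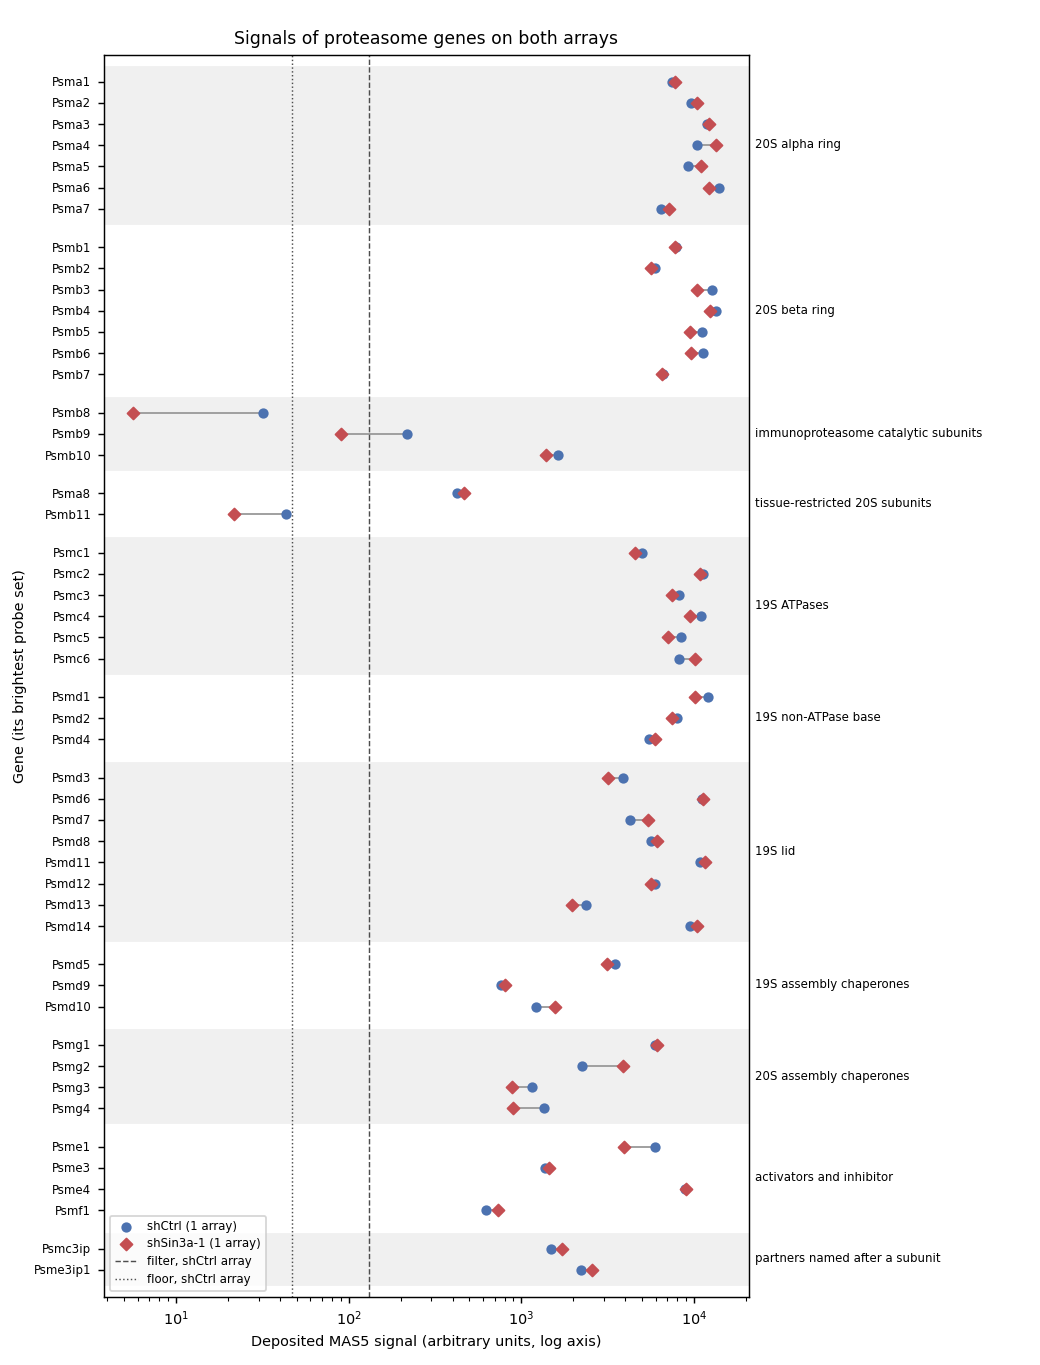
Deposited MAS5 signals (log axis, arbitrary units) of the 49 proteasome genes on the shCtrl array (circles) and the shSin3a-1 array (diamonds), 1 array a group, with the filter and the floor of the shCtrl array as lines. Core and cap subunits nearly coincide, while Psmb9 crosses the filter line (217 in shCtrl, 89.7 in shSin3a-1) and Psmb8 and Psmb11 stay under the floor.

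The 3 inducible catalytic subunits differed from each other in whether they were measurable at all. Psmb9, the counterpart of Psmb6, gave a signal of 217 on the control array and 89.7 on the knockdown array, 2.24-fold lower (difference -1.16, and -1.27 as deposited). It stood at percentile 66.9 of the shCtrl array and 55.1 of the shSin3a-1 array, so it passed the filter through the array on which it was high. It also passed a filter on the mean of both arrays. Psmb9 has 1 probe set, and no second one could be set beside it.

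Dim genes reach 2-fold more often than bright ones. Of the 2703 kept genes whose brighter value lay under the 75th percentile, as that of Psmb9 did, 5.11% were lower at 2-fold, and 89 (3.29%) were as low as Psmb9 or lower. With 64 added to each signal before log2, which damps dim values, the Psmb9 difference was -0.81 and no member was past 2-fold.

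Psmb8, the counterpart of Psmb5, had signals of 31.8 and 5.65 in its brighter probe set and 8.75 and 5.94 in the other. All 4 values lay under the floor, the 40th percentile of each array (46.8 in shCtrl and 41.7 in shSin3a-1), so no difference is given. Psmb10, the counterpart of Psmb7, was well above the filter, with signals of 1634 and 1395. Its difference was -0.12, close to those of Psmb5 and Psmb6 and inside the interquartile range of all kept genes, which ran from -0.18 to 0.32.

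The constitutive counterparts were bright on both arrays. Psmb5, the chymotrypsin-like subunit, had signals of 11111 and 9529 (-0.11), Psmb6, the caspase-like subunit, 11261 and 9679 (-0.11), and Psmb7, the trypsin-like subunit, 6639 and 6569 (0.09). The difference of Psmb9 minus that of Psmb6 was -1.05, and that of Psmb10 minus that of Psmb7 was -0.21.

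Other genes of MHC class I presentation were listed beside these subunits. Of 13 genes, 12 had a probe set of their own and 8 were kept, of which 7 lay below the median of all kept genes; the median of the 8 was -0.23. H2-K1, a class I heavy chain, had signals of 1566 and 874 (-0.73) and was the 1 kept gene of this list lower at 1.5-fold. B2m, the light chain, had 787 and 525 (-0.48), and Irf1, a transcription factor induced by interferon, had 975 and 668 (-0.44). H2-D1, another heavy chain, had 1021 and 737 (-0.36). Calr (-0.11), Tapbp (-0.02) and Canx (0.01) were also among those below the median. They lay inside the interquartile range of all kept genes, -0.18 to 0.32. Calr and Canx are bright, and for kept genes above the 90th percentile that range was -0.07 to 0.28. Calr lay below it and Canx inside it. Pdia3, a disulfide isomerase of peptide loading, went the other way, with 3955 and 5527 (0.59, and 0.48 as deposited).

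Probe sets of these genes did not all run together. A second B2m probe set was at 0.00, and of the 3 kept probe sets each of H2-K1 and H2-D1, 1 was above 0 (0.23 and 0.59); heavy chain genes share sequence, and cross-reaction of their probe sets was not tested. The transporter genes Tap1 (60.5 and 49.7) and Tap2 (101 and 16.9), the peptidase gene Erap1 (91.4 and 54.7) and the class I activator gene Nlrc5 (53.8 and 32.1) were below the filter.

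**Figure D2:**
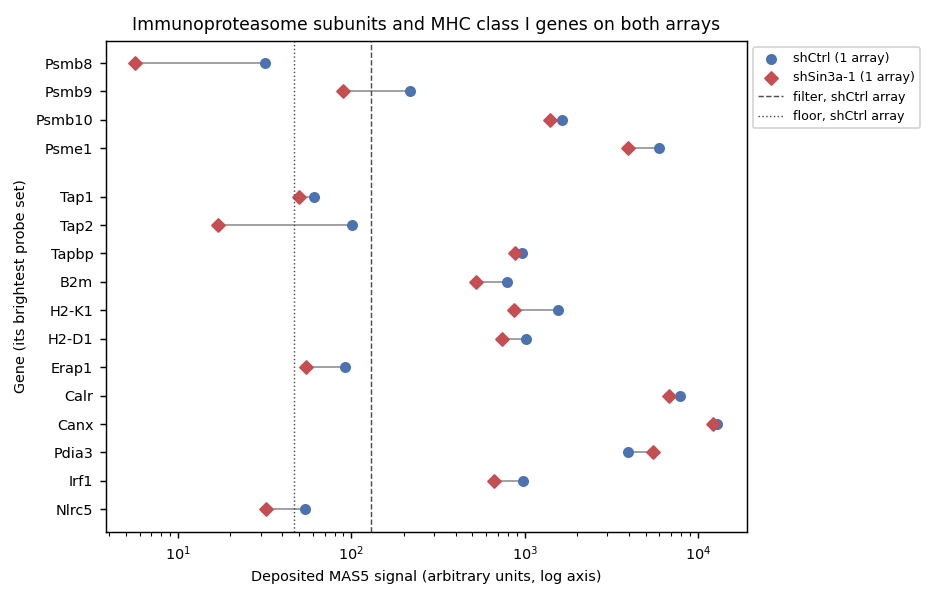
Deposited MAS5 signals (log axis, arbitrary units) of the immunoproteasome catalytic subunits, Psme1 and the MHC class I list on the shCtrl array (circles) and the shSin3a-1 array (diamonds), 1 array a group. Psmb9, Psme1, H2-K1, B2m, H2-D1 and Irf1 are lower on the shSin3a-1 array, and Psmb10, Tapbp, Calr and Canx are lower by less. Pdia3 is higher, and Psmb8, Tap1, Tap2, Erap1 and Nlrc5 lie below the filter line on both.

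Immune cells carry the immunoproteasome constitutively, so leukocyte genes were read as well. Of 6 leukocyte markers 2 were kept, Laptm5 (1375 and 1186) and Coro1a (552 and 412), and Ptprc (17.7 and 2.92) and Cd52 (46.7 and 7.48) stayed under the floor. Below the filter, Tyrobp (8.34 and 46.9) was higher in shSin3a-1 and Cd74 (79.1 and 59.9) lower, and a dimmer kept probe set of Laptm5 was at 0.97 against -0.11 in its brightest. Summed signals of the 6 were 2079 in shCtrl and 1715 in shSin3a-1, most of it from Laptm5. Such sums of deposited signals are weighted to the brightest probe sets and measure no share of cells. Of 7 fibroblast markers with a probe set of their own, 5 lay under both floors and Thy1 alone was kept (161 and 104), with summed signals of 338 and 257. Of the markers below the filter, Col1a2 (32.2 and 49.6) and Lum (17.1 and 28.6) had the higher signal in shSin3a-1. The part of other cells in the Psmb9 and MHC class I values was not tested. In bulk RNA, fewer cells with a transcript and less transcript in each cell cannot be told apart.

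The rings of the 20S core leaned to opposite sides of the median of all kept genes. Of the 7 alpha subunits 6 lay above it, with a median of 0.21 and a range from -0.09 to 0.46. Of the 7 constitutive beta subunits 5 lay below it, with a median of -0.0014 and a range from -0.19 to 0.09. Both ring medians lay inside the interquartile range of kept genes above the 90th percentile, -0.07 to 0.28. The ring medians differed by 0.21, a value that no constant scaling of an array can change, and by 0.21 to 0.29 under the alternatives. The filter and floor alternatives left it unchanged, since they do not alter the values of these subunits. This contrast was noticed after the values were seen and has no replicate check.

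Psma4 was the alpha subunit furthest up, with signals of 10444 and 13346 (0.46). Psma5 followed with 9208 and 10940 (0.36), and its second kept probe set was at 0.17. Psma7 had 6421 and 7212 (0.28), Psma2 9678 and 10366 (0.21), Psma1 7493 and 7817 (0.17) and Psma3 11973 and 12249 (0.14). These 6 had the higher signal in shSin3a-1 before any centring. Psma6 was the exception, with 14062 and 12270 (-0.09), although another bright probe set of it gave 9332 and 8974 (0.05). Dim kept probe sets of Psma1 (207 and 161, -0.26), Psma3 (175 and 99.4, -0.71) and Psma6 (619 and 373, -0.62) were below 0.

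Among the beta subunits without catalytic activity, Psmb3 was lowest, with 12769 and 10377 (-0.19), and its second probe set agreed at -0.20. Psmb4 had 13434 and 12448 (-0.0014), Psmb2 5946 and 5628 (0.03) and Psmb1 7851 and 7766 (0.09). Every constitutive beta subunit had the lower deposited signal in shSin3a-1, and the lowest deposited difference was the -0.30 of Psmb3.

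The tissue-restricted core subunits were read apart. Psma8, the alpha subunit of the testis proteasome, had signals of 426 and 465 (0.23). Psmb11, the catalytic subunit of the thymus proteasome, had 43.5 and 21.7, both under the floor.

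In the 19S base, 5 of the 6 ATPases lay below the median of all kept genes. Their range was narrow, from -0.14 in Psmc5 (8420 and 7066) to 0.05 in Psmc2 (11310 and 10869). Psmc6 was the exception, with signals of 8184 and 10108 (0.41), and its 3 kept probe sets ran from 0.41 to 0.57. Psmc6 was thus the ATPase furthest from the rest of its ring.

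The large scaffold subunits Psmd1 (12043 and 10163, -0.14) and Psmd2 (8026 and 7418, -0.01) lay below the median of all kept genes. Psmd4, a receptor of ubiquitin chains, had 5523 and 5939 (0.21). A second Psmd4 probe set was at 0.33, while another, dim one passed 2-fold downward (153 and 61.5, -1.21).

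The 8 lid subunits had a median of 0.17, with 5 above the median of all kept genes. Psmd7, the scaffold partner of the deubiquitinase, was highest, with 4250 and 5434 (0.46), although a dim probe set of it was at -0.20. Psmd14, the deubiquitinase that removes chains from the substrate, had 9535 and 10486 (0.25). Psmd3 was lowest, with 3889 and 3168 (-0.19), followed by Psmd13 with 2374 and 1955 (-0.17). Psmd11, whose abundance is known to set 26S assembly in human pluripotent cells, had 10787 and 11623 (0.22). All 5 kept probe sets of Psmd11 were above 0, from 0.13 to 1.10, and the highest of these was a dim one with signals of 205 and 406. Psmd6, Psmd8 and Psmd12 lay between 0.03 and 0.21 by their brightest probe sets, and a dimmer one of Psmd6 (782 and 584) was at -0.31.

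**Figure D3:**
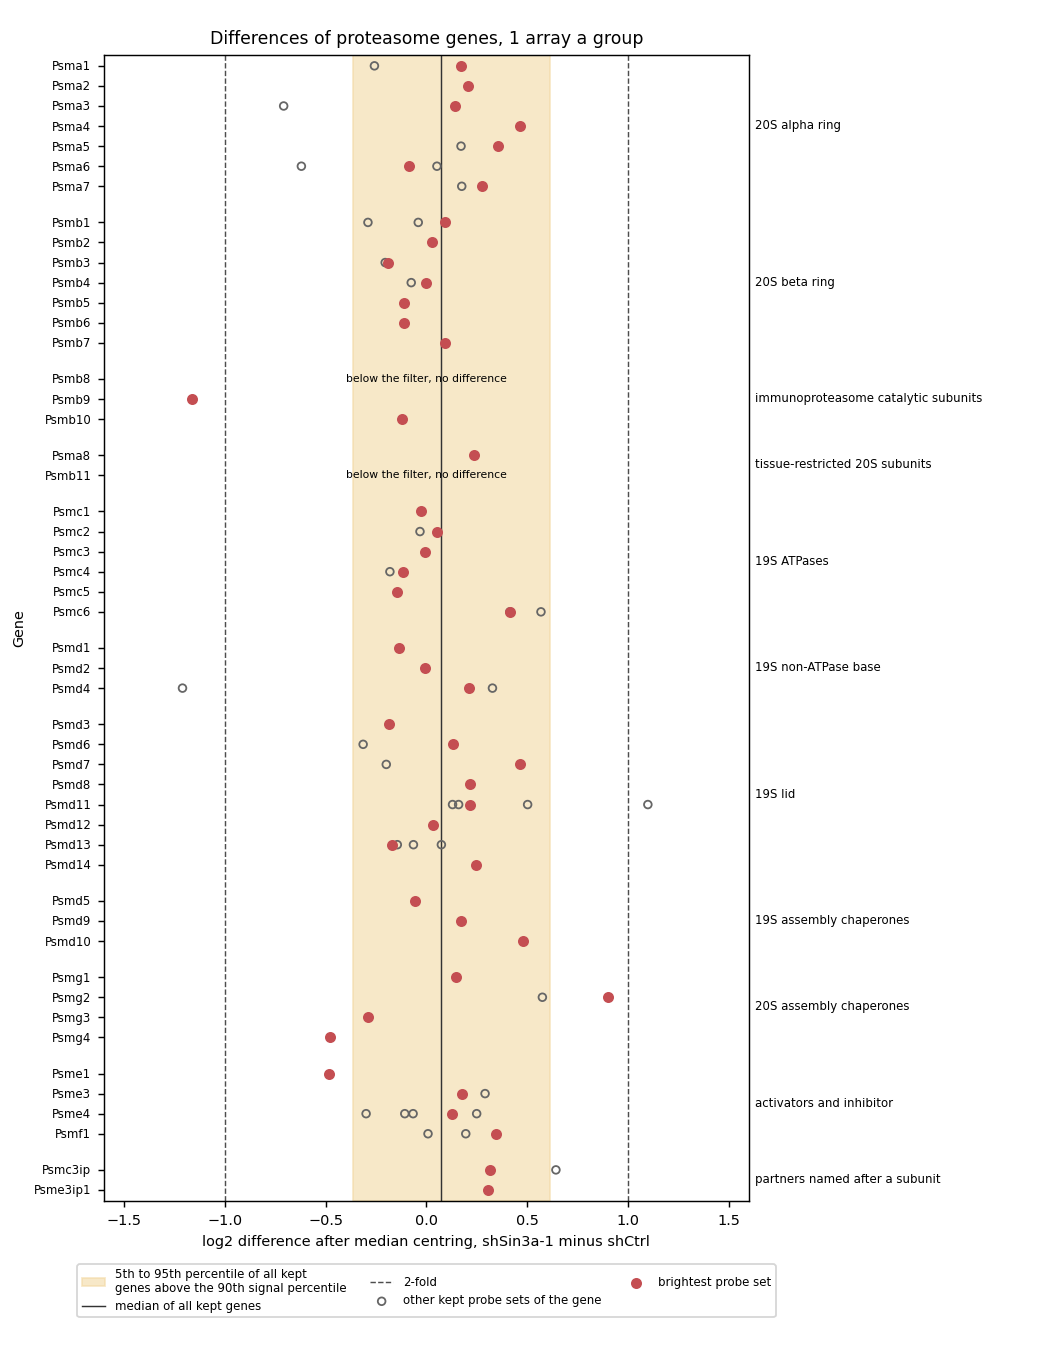
Difference in log2 signal after median centring (shSin3a-1 minus shCtrl, 1 array a group) for each proteasome gene, by its brightest probe set (filled) and its other kept probe sets (open), grouped by role; the band is the 5th to 95th percentile (-0.37 to 0.61) of all kept genes above the 90th signal percentile. Of the 47 kept members 37 were that bright, and the same percentiles over all kept genes were -0.67 and 0.79. Psmb9 (-1.16) is the 1 filled point past 2-fold, Psmg2 (0.90) is the highest, and dim probe sets of Psmd4 (-1.21) and Psmd11 (1.10) pass 2-fold against a brightest probe set near 0.2.

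Assembly chaperones held the highest member. Psmg2, which pairs with Psmg1 to build the alpha ring, had signals of 2256 and 3906, 1.87-fold higher (0.90, and 0.79 as deposited). Its second kept probe set gave 2089 and 2888 (0.58). Of the 3006 kept genes above the 90th percentile, 35 (1.16%) were as high as Psmg2 or higher. Psmg1 had 5959 and 6110 (0.14), so both partners were above the median of all kept genes, but by unequal amounts.

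Psmg3 and Psmg4, which form the other chaperone pair of the alpha ring, were both below it. Psmg4 had 1348 and 898 (-0.48) and Psmg3 had 1155 and 877 (-0.29), each by 1 kept probe set. Psmd10, a chaperone of the 19S base, had 1213 and 1571 (0.48), while the base chaperones Psmd5 (3511 and 3135, -0.06) and Psmd9 (765 and 799, 0.17) differed less.

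Among the activators, Psme1 was lower. Psme1 encodes the alpha subunit of PA28, an interferon-inducible cap that opens the core without ATP. Its signals were 5961 and 3960, 1.40-fold lower (-0.48, and -0.59 as deposited), by its 1 probe set. Psme2, its partner in PA28, was not lower after centring: its probe set, shared with Psme2b, had 3715 and 3543 (0.04). Of the 3006 kept genes above the 90th percentile, 69 (2.30%) were as low as Psme1 or lower. The nuclear activator Psme3 had 1378 and 1446 (0.18), and Psme4, which encodes PA200, had 8884 and 9008 (0.13). Of the 5 kept Psme4 probe sets 3 were below 0, among them one with 6044 and 5355 (-0.07), and the 5 ran from -0.30 to 0.25. Psmf1, which encodes the inhibitor and transport factor PI31, had 622 and 733 (0.35), and its 3 kept probe sets ran from 0.01 to 0.35.

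**Figure D4:**
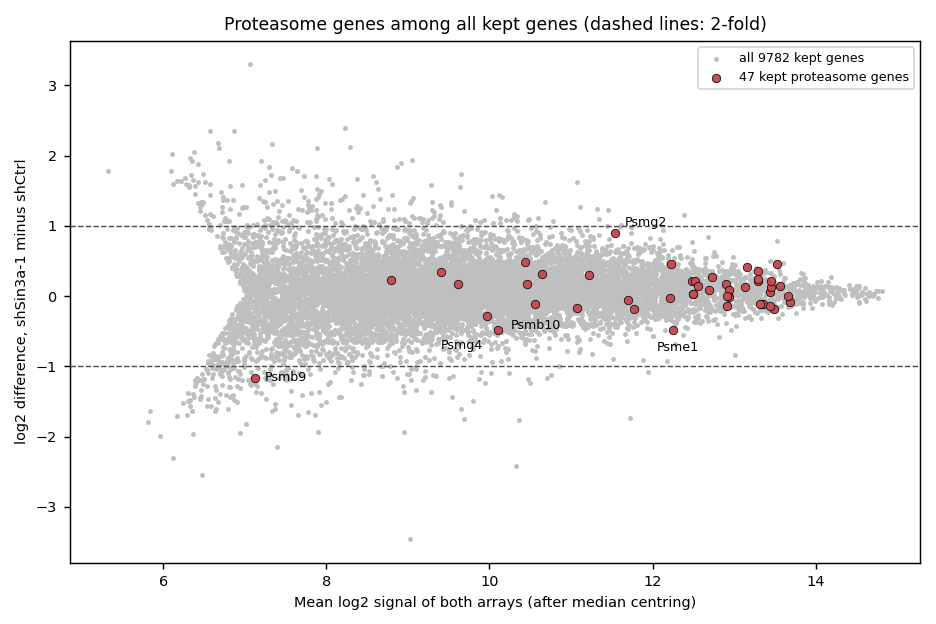
Difference in log2 signal (shSin3a-1 minus shCtrl) against the mean log2 signal of both arrays for all 9782 kept genes (grey) and the 47 kept proteasome genes (red), after median centring, 1 array a group. The spread narrows with signal, most proteasome genes lie at the bright end within 1.5-fold, and Psmb9 is the dimmest of them, at -1.16.

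Genes that work with the proteasome were mostly similar on both arrays too, by their brightest probe sets. Of 20 genes that supply ubiquitin or bind the proteasome, 12 had a probe set of their own, and all 12 were kept and within 1.5-fold. Of all kept genes 83.1% were within 1.5-fold, and of those above the 90th signal percentile 92.6% were. The median of the 12 was 0.11, beside 0.07 for all kept genes. Akirin2, which carries proteasomes into the nucleus, came closest to 1.5-fold, with 4399 and 6021 (0.56). Pomp, the maturation factor of the core, had 8065 and 6942 (-0.11). Of 12 genes that control proteasome transcription or serve the p97 route, 11 were kept, with a median of 0.19 beside 0.07 for all kept genes. Nfyb, a subunit of NF-Y, was the 1 gene of that list past 1.5-fold by its brightest probe set, with 1693 and 2712 (0.79). Its other kept probe set was at 0.33. Its partner subunits Nfya (-0.25) and Nfyc (-0.42) were below 0 by their brightest probe sets. The other kept probe set of Nfya was at 0.29. Sel1l, also of that list, had 981 and 1120 (0.30) in its brightest probe set, and its 5 kept probe sets ran from 0.30 to 1.68. Nfe2l1, which encodes NRF1, the factor that raises proteasome genes when the proteasome is blocked, had 2114 and 2017 (0.04).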

How the data were processed

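RNA of 1 shCtrl and 1 shSin3a-1 culture was hybridised to an Affymetrix array of 45101 probe sets. The deposited values are linear intensity signals. Per the submitters' processing notes, the authors used MAS5 and Affymetrix Expression Console; tool versions and a genome build were not given in the sources used here. Both arrays had a trimmed mean of 500. MAS5 subtracts mismatch signal, so ratios of dim probe sets are unreliable. Detection calls were not used here, and the number of arrays limits the precision.

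Names came from the platform annotation (34958 probe sets with 1 symbol), updated through Entrez identifiers (34754 matched RefSeq, GRCm38.p6). The 64 control probe sets were left out, signals taken to log2 and each array centred on its median. Each array had a floor at its 40th percentile, to which lower values were raised. With 1 array per group, genes were counted at a fixed 2-fold or 1.5-fold. Python 3.11.15, pandas 2.3.3 and NumPy 2.4.6 were used, and the steps were tested on simulated data. The simulated noise was alike at every brightness, so that test does not show how reliable the differences of dim genes are. Named are the catalytic subunits, members past 2-fold in any kept probe set, the extremes of each role class, the brightest and dimmest members, members below the filter and, of each companion list, genes past 1.5-fold or else the furthest; other values were chosen after they were seen. The members and lists were chosen with earlier results of these data known. The alternatives covered scaling, probe set choice, filter, floor, an offset and the fold.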

Additional observations from a re-analysis of the deposited data

How the results depend on the processing

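With a filter at the 75th percentile Psmb9 was left out, and the members lower at 2-fold came to 0; with the offset of 64 they also came to 0. At a threshold of 1.5-fold, 1 member was higher. The count of members past 2-fold was the same under the other alternatives. The members' median turned from 0.09 to -0.02 with the deposited scaling and -0.02 with scaling on the 75th percentile. The median of all kept genes moved as well, to -0.03 and -0.04. With the mean of all probe sets the members' median was -0.04, against 0.10 for all kept genes. Only 18 of 47 members then lay above the latter, so the members' place beside that median depends on the probe set choice. Under all alternatives 18 to 26 members lay above the median of all kept genes. Of 515 single values under the alternatives, 511 moved by less than the SD between kept probe sets of a gene (0.39 over 4410 genes). The other 4 were Psma3 (-0.28 in the mean of probe sets, -0.71 without suffixed probe sets), Psmd4 (-0.22) and Psme3 (-0.34), the last 2 in the mean of probe sets. Many of the 515 could not move that far, so their count is no measure of stability. The filters and the floor left every kept member's value unchanged, and the deposited and 75th percentile scalings shifted all values alike. Members with 1 probe set cannot change with the probe set choice. Signal near background limits Psmb8, Psmb9 and Psmb11. No paired analysis was possible because each group has 1 array.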

Other observations

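The symbol rule also took in a pair of genes named after a subunit they bind that are no part of the proteasome. Psmc3ip, a recombination factor of meiosis, had signals of 1493 (shCtrl) and 1721 (shSin3a-1), a log2 difference of 0.31, and its second probe set, with 1058 and 1532, was at 0.64. Psme3ip1, a binding partner of the nuclear activator, had 2226 and 2554 (0.31). Psme2, the partner of Psme1 in PA28, has a probe set shared with the near-identical Psme2b and so fell outside the rule; that probe set had signals of 3715 and 3543 (0.04), beside -0.48 for Psme1.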
